A study of Mus musculus with 3 samples.

Results

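Yap1 signal was described at 3 genes that set how much glucose a heart cell takes up: Slc2a1 and Slc2a4, which encode the glucose transporters Glut1 and Glut4, and Txnip, which encodes thioredoxin-interacting protein. The regions were all those of the deposited table whose gene list held 1 of these symbols, which gave 6 of 22020 regions: 2 for Slc2a1, 3 for Slc2a4 and 1 for Txnip. The data came from chromatin immunoprecipitation followed by sequencing (ChIP-seq) with an antibody against Yap1 in whole hearts of wild-type male C57BL/6J mice. Hearts were taken 7 days after a sham operation or after a transverse aortic constriction operation (TAC), in which a ligature narrows the aorta and the left ventricle must pump against a higher pressure. The series' design gives 3 mice per operation, but there was 1 anti-Yap1 library per operation, and the sources used here do not say whether it pooled the mice. No value below could therefore be set against variation between mice, no test was made, and the words higher and lower refer to this pair of libraries alone.

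Yap1 is the transcriptional co-activator that the Hippo kinase cascade holds in check, and it reaches DNA through partner proteins, chiefly the TEAD factors. Glut1 gives most cells their basal glucose uptake and is the main transporter of the fetal heart. Glut4 is the main transporter of adult heart muscle and fat, stored in vesicles that insulin and contraction send to the cell surface. Txnip is an alpha-arrestin that binds thioredoxin and promotes the removal of Glut1 and Glut4 from the cell surface. Its gene is induced by glucose through the factors MondoA and ChREBP, encoded by Mlxip and Mlxipl, and so closes a feedback loop on uptake. Hearts under pressure load are known to shift from fatty acids towards glucose as fuel.

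A Yap1 region spanned the start of all 3 genes, and the promoter sequences of Slc2a1 and Txnip are shown, while that of Slc2a4 was not analysed here. They are the 250 bases before the start on the plus strand, credited to RefSeq on GRCm38.p6, at chr4:119108495-119108744 for Slc2a1 and chr3:96557707-96557956 for Txnip. Both windows lay wholly inside the Yap1 region of their gene. Capitals mark each match, on either strand, to the searched motifs.
Slc2a1: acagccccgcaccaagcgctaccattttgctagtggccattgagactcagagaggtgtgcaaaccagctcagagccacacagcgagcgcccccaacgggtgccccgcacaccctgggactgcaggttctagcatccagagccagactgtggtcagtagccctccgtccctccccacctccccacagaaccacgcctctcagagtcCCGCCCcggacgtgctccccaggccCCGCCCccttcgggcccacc
Txnip: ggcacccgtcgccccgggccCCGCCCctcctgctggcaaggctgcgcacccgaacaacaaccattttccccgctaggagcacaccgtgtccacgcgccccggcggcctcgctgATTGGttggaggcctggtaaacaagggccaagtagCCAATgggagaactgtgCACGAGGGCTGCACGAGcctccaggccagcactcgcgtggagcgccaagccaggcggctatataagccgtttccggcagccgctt
The motifs were the TEAD site GGAATG, the AP-1 site TGANTCA, the E-box CACGTG, the carbohydrate response element (CACGNG, 5 bases of any kind, then CNCGNG), the CCAAT box CCAAT and the GC box GGGCGG.

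The longest run of capitals in the Txnip promoter, 17 bases, was the carbohydrate response element, a pair of E-box-like sites with 5 bases between them, through which MondoA and ChREBP with their partner Mlx are known to act. The match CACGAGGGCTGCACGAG lay from 85 to 69 bases before the start. This motif stood in 92 of 32851 RefSeq promoter windows of the same length (0.28%), and Txnip was the 1 gene to hold it among 53 genes of glucose uptake with such a window. The Txnip window also held 2 CCAAT boxes, at 137 and 102 bases before the start, and 1 GC box. The Slc2a1 window held 2 GC boxes, at 45 and 20 bases before the start, and no CCAAT box. Of all windows, 33.8% held a CCAAT box and 32.7% a GC box. Neither window held the TEAD letters (12.6% of all windows did), the AP-1 letters (6.75%) or the plain E-box (6.02%). The match is a description of letters in this window, which is a small part of each region. Both windows were rich in G and C, at 66.4% for Slc2a1 and 66.8% for Txnip, where the median of all windows was 52.4%. Txnip had 22 CG pairs and Slc2a1 13.

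Over all 22020 regions the TAC library had the lower average signal in 94.6%, with a median of 10.6 in sham and 7.46 in TAC. With 1 added to each signal, the log2 ratio of TAC to sham had a median of -0.54, and its quartiles were -0.72 and -0.34. The sources used here give neither read depth nor how the libraries were scaled to each other, so a ratio below 0 may hold a difference in scale, and each ratio below is set against this median. Each region is in the table because at least 1 library called it, 96.6% in sham, 48.7% in TAC and 45.3% in both. Regions called in sham alone enter through the library where they tend to be high. The median ratio, the 94.6% and the shares of lower regions and genes below therefore depend on the calls too. Whole hearts hold many cell types, and fewer cells of a type cannot be told apart from less Yap1 on the DNA of each cell. Of the defining markers of heart muscle cells, 6 of 6 had a region, with a median log2 ratio of -0.79. Endothelial markers had a region in 5 of 5 cases (median -0.37), fibroblast markers in 3 of 4 (-0.26), leukocyte markers in 1 of 4 (-0.61) and liver markers in 2 of 4 (median -0.93, the lowest of these lists). Regions also listed for other genes were 4 of the heart muscle ones, 2 of the fibroblast ones, 2 of the liver ones and 0 of the endothelial ones. The 1 leukocyte region lay 5723 bp upstream of Cd68 and was listed for 8 genes. That of Myh6 lay downstream, 26265 bp from its start. For Pecam1 the region used lay in the gene, 55121 bp from its start, and the ratios of its 6 regions ran from -0.54 to 0.38. Of all RefSeq protein-coding genes 53.3% had a region, beside which the marker counts stand. The part of cell types in the values below was not tested.

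Slc2a4 lay in a cluster of 3 Yap1 regions on chromosome 11, and each had less signal in TAC. All 3 were also listed for its neighbour Ybx2, which encodes a germ cell nucleic acid-binding protein. The strongest region spanned the start of Slc2a4, and the other 2 lay downstream of the gene.

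The Slc2a4 start region ran from 69943792 to 69949860 on mm10, a length of 6068 bp. It held 1644 bp before the RefSeq start and 74.6% of the gene, which lies on the minus strand. Its average signal was 18.1 in sham and 9.77 in TAC, and its maximum 50 in sham and 25 in TAC. The region was called in both libraries, and both measures were higher in sham. Sham was 1.77-fold higher by the average (log2 ratio -0.83) and 1.96-fold higher by the maximum (-0.97). In sham the average ranked 1017 of all regions and in TAC 4128. The ratio stood at percentile 15.0 of all regions, at 5.30 of the 3915 regions with a CpG island and a promoter listed for several genes, and at 15.3 of the 1411 regions whose sham average was within 10% of it. This region was thus among the stronger ones in sham and held a lower place in TAC.

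The middle region, named here the Ybx2 body region, ran from 69936097 to 69942358. It covered 95.0% of Ybx2 and the last 73 bp of Slc2a4. Its average was 9.65 in sham and 5.83 in TAC, and its maximum 19 and 16. The average was 1.56-fold higher in sham (log2 ratio -0.64) but the maximum only 1.18-fold (-0.23). The 2 measures therefore placed it differently, at percentile 35.0 of all regions by the average ratio and 78.4 by the maximum ratio. It was called in sham alone.

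The Ybx2 start region, from 69933593 to 69935884, lay 13452 bp from the start of Slc2a4 by its midpoint and spanned the start of Ybx2. Its average was 11.0 in sham and 5.88 in TAC, and its maximum 25 and 14, with a call in sham alone. Sham was 1.74-fold higher by the average (log2 ratio -0.80) and 1.73-fold by the maximum. Gaps of 213 bp and 1434 bp separated the 3 regions, all called in sham, so they nearly joined over both genes. In TAC only the Slc2a4 start region was called. The ratios at the starts of Slc2a4 and Ybx2 (-0.83 and -0.80) differed by little, and with nothing added to the signals their order turned (-0.89 and -0.90). Because the table lists all 3 for both genes, these values belong to the locus and not to Slc2a4 alone.

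Slc2a1 had 2 regions on chromosome 4, both listed for it alone, and by the average signal both kept more in TAC than most regions did. The start region ran from 119108058 to 119109561, with 687 bp before the start and 817 bp inside the gene, and overlapped the long noncoding RNA gene Gm52706. It was short, at 1503 bp, and was called in both libraries. Its average was 10.9 in sham and 9.19 in TAC, and its maximum 27 and 20. Sham was 1.17-fold higher by the average (log2 ratio -0.23) and 1.33-fold by the maximum (-0.42). The ratio stood at percentile 85.2 of all regions, at 84.3 of the 3436 regions with a CpG island and a promoter listed for 1 gene, and at 87.1 of the 5886 regions with a sham average within 10%. In sham its average was ordinary, at percentile 54.0, and in TAC it stood at 74.9.

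The Slc2a1 inner region ran from 119116541 to 119119345, wholly inside the gene, with its midpoint 9198 bp from the start and no promoter or CpG island counted to it. Its average was 8.18 in sham and 6.37 in TAC, and its maximum 20 and 12. The average was 1.25-fold higher in sham (log2 ratio -0.32, percentile 77.6 of all regions), and the maximum 1.62-fold (-0.69, percentile 36.0). So by its highest point this region did not keep more signal than the typical region, and it was called in sham alone. Among the 7515 regions inside genes with no promoter, its average ratio stood at percentile 81.9. Relative to the median of all regions both Slc2a1 regions were above 0, by 0.31 at the start and 0.22 inside, and by the maximum these values were 0.13 and -0.14.

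**Figure D1:**
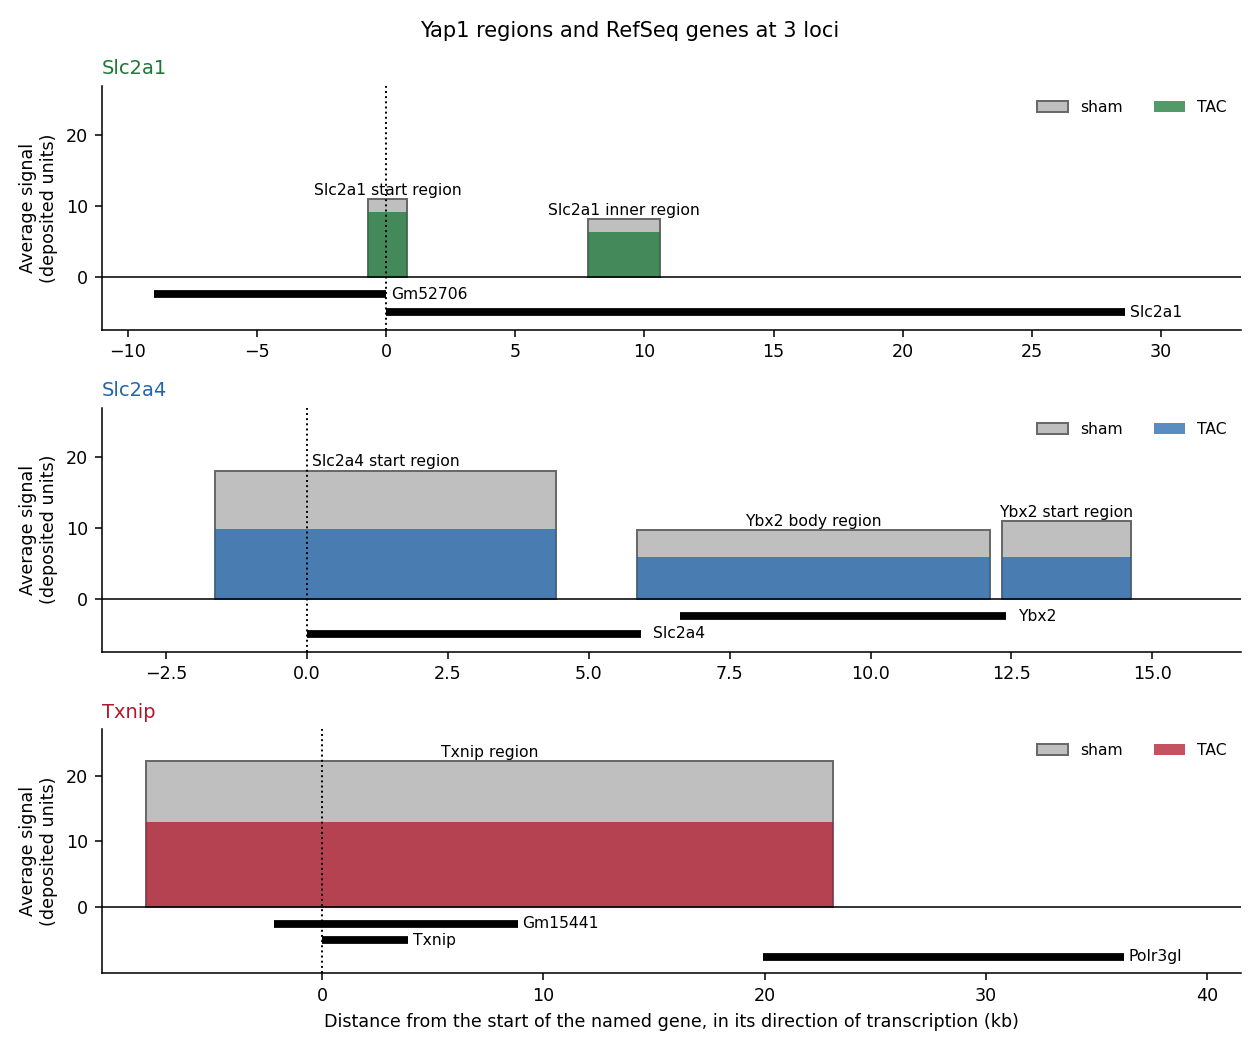
Average Yap1 signal in deposited units (bar height; grey sham, colour TAC, drawn over each other) at each region, against distance in kb from the start of Slc2a1, Slc2a4 or Txnip in its direction of transcription, with RefSeq genes as black lines. The Txnip region covers 31.0 kb and 3 genes, the Slc2a4 regions run into Ybx2, and the TAC bars of Slc2a1 reach closest to the sham bars.

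Txnip lay under a single Yap1 domain that was among the broadest and strongest of the table in both libraries. It ran over 31016 bp of chromosome 3, from 96550015 to 96581031, and was merged from 5 called intervals. The average was 22.3 in sham and 13.0 in TAC, which ranked 208 and 659 of all regions, and the maximum was 95 in sham and 53 in TAC. Sham was 1.66-fold higher by the average (log2 ratio -0.73) and 1.78-fold by the maximum (-0.83). Both libraries had a call here. The Txnip domain thus stayed near the top of both libraries, at percentile 99.1 in sham and 97.0 in TAC, although its deposited signal was lower in TAC.

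This domain began 7942 bp before the start of Txnip and went on for 19174 bp past its end. It covered all of Txnip (12.6% of the region), all of Gm15441, a long noncoding RNA gene that overlaps Txnip, and the last 3160 bp of Polr3gl, which encodes an RNA polymerase III subunit. The table gives no position for the maximum, so how the signal was spread over these genes could not be read. The maximum was 4.27 times the average in sham and 4.08 times in TAC, which shows a summit well above the rest of the domain in both libraries. At the other 5 regions, which were at most 6261 bp long, this quotient was between 1.88 and 2.77. Among regions of at least 20 kb, sham maximum and average were 275 and 31.0 at Amotl2, 126 and 19.9 at Zbtb16, and 37 and 14.6 at Sprtn and Egln1. The quotient of Txnip thus lay between those of other long regions and was not particular to it. The ratio of the Txnip domain stood at percentile 23.7 of all regions and at 11.9 of the 3915 regions with a CpG island and a promoter listed for several genes. Among the 383 regions with a sham average within 10% it stood at percentile 39.8, where their median was -0.67.

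Length set the domain apart more than its ratio did. Of all regions it was the number 4 in length, where the median region had 2115 bp. Of the 22 regions of at least 20 kb, its average ranked 2 in sham, behind that of Amotl2, and 6 in TAC, and its maximum ranked 5 and 6. These 22 regions had a median log2 ratio of -0.64, from -0.83 to -0.49, and 4 of them were lower than Txnip. Among the 22 were also regions of 2 other genes of the glucose uptake lists below, Hk2 (21363 bp, -0.81) and Mef2d (21107 bp, -0.67). The 615 regions of 8 kb or more had a median of -0.62.

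**Figure D2:**
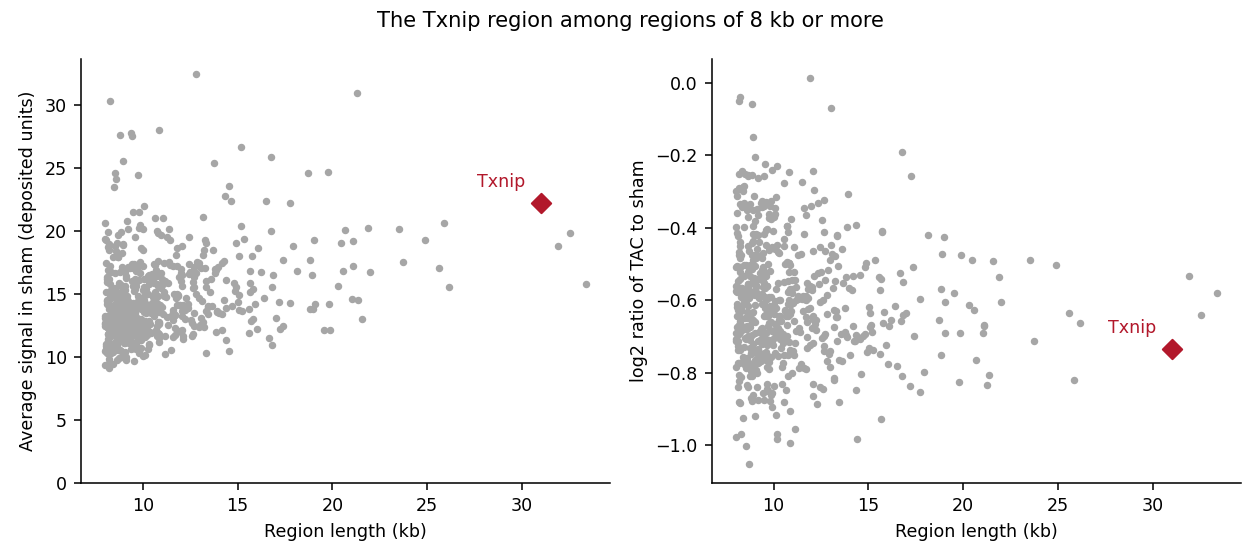
Each point is a Yap1 region of at least 8 kb, by length in kb and by average sham signal in deposited units (left) or log2 ratio of TAC to sham (right), with the Txnip domain as a red diamond. At 31.0 kb and 22.3 in sham it lies at the far end of length and high in signal, and its ratio of -0.73 lies inside the spread of the other broad regions.

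Set side by side, the 6 regions all had a lower average and a lower maximum in TAC than in sham, as had 94.6% and 89.4% of all regions, and 3 of them, 1 per gene, were called in TAC. Of all regions, 48.7% were called in TAC and 96.6% in sham, where all 6 were called. At least 1.5-fold less signal in TAC was seen at 4 of the 6, namely the Slc2a4 cluster and Txnip, beside 43% of all regions. Of these 4, the Ybx2 start and body regions are in the table through their call in sham alone. The 43% likewise includes regions called in sham alone, so neither count is independent of the calls. None was at least 1.5-fold higher (0.486% of all regions). Relative to the median of all regions none was past this size in either direction, beside 2.31% lower and 4.42% higher of all. Of the 4 regions, 3 were the adjacent regions of the Slc2a4 cluster, so the count is too small to be set apart from the 43%. By the average the genes lay on different sides of the median, both Slc2a1 regions above it and the Slc2a4 and Txnip regions below it. By the maximum this split did not hold for every region. The Slc2a1 inner region then lay below the median of all regions (by -0.14) and the Ybx2 body region above it (by 0.31), so that Slc2a1 and the Slc2a4 cluster each had regions on both sides.

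**Figure D3:**
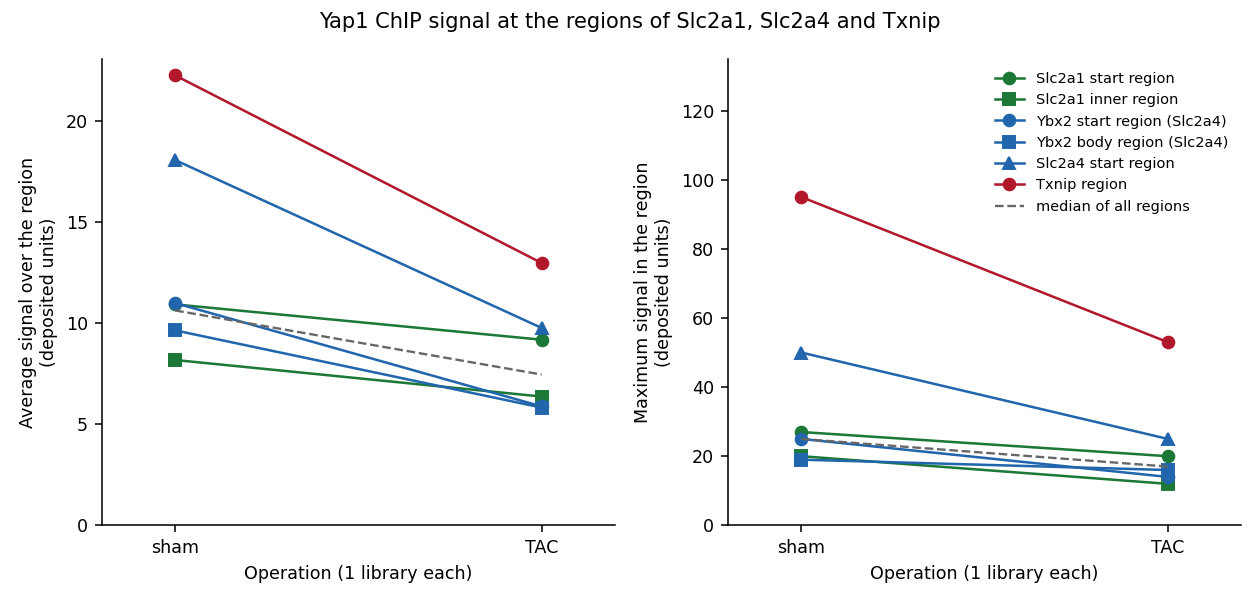
Average (left) and maximum (right) Yap1 signal in deposited units at each of the 6 regions in the sham and the TAC library, 1 library each, with the median of all regions dashed. The lines of Slc2a1 are flatter than the dashed line by the average, and those of Txnip and the Slc2a4 start region fall from the highest sham values.

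The order of the regions by average signal in sham was Txnip, the Slc2a4 start region, the Ybx2 start region, the Slc2a1 start region, the Ybx2 body region and the Slc2a1 inner region. In TAC the first 2 places were the same, and both Slc2a1 regions passed the 2 Ybx2 regions. The Slc2a1 start region had 60.5% of the sham average of the Slc2a4 start region and 94.0% of its TAC average. With no replicates, neighbours in these orders cannot be called different. The difference between 2 regions in their log2 ratios does not depend on a common scale factor, apart from the 1 added to each signal. Between the Slc2a1 and Slc2a4 start regions it was 0.60 by the average and 0.56 by the maximum, and between the Slc2a1 start region and Txnip 0.51 and 0.42.

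**Figure D4:**
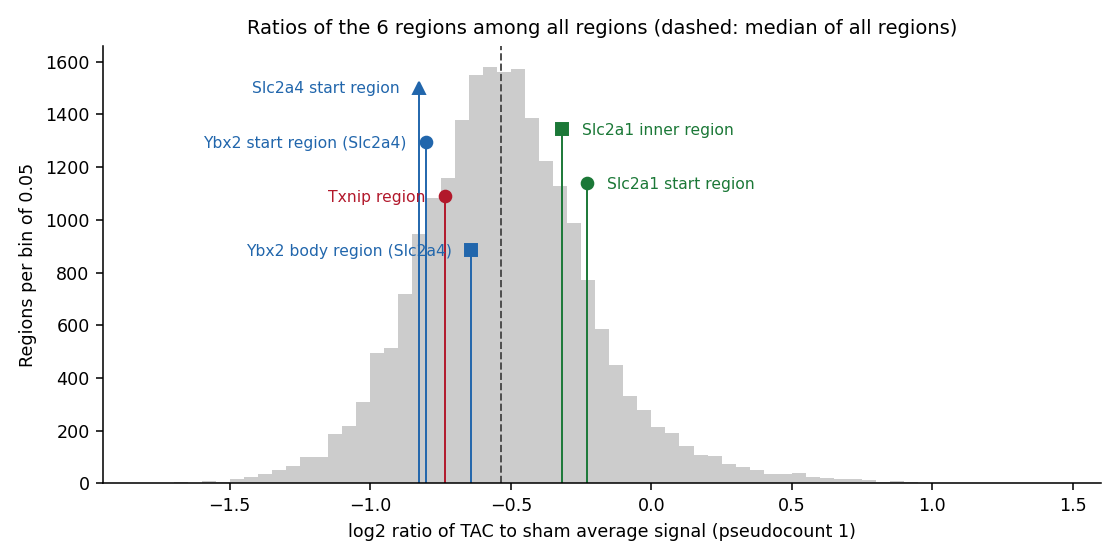
Histogram of the log2 ratio of TAC to sham average signal over all 22020 regions in bins of 0.05, with the 6 regions marked by vertical lines and the median of all regions (-0.54) dashed. The Slc2a1 regions stand to the right of the median and the Slc2a4 and Txnip regions to its left, all within the bulk of the distribution.

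The neighbouring regions on the chromosomes did not all share these ratios. Around Slc2a1 the nearest others were far, 245 kb away at Olfr1331 (8.0 in sham, 7.30 in TAC, log2 ratio -0.12) and 53.4 kb from the inner region at Zfp691 and Ermap (12.6 and 9.13, -0.42). Within 100 kb of the Slc2a4 cluster there were 12 other regions with a median of -0.55, of which 8 had a higher ratio than any of the 3 and 1 a lower ratio than all of them. The ratios of these 12 ran from -0.85 to 0.61, the highest being at least 1.5-fold higher in TAC. The nearest were those listed for Neurl4, Gps2 and Eif5a (19.3 and 11.6, -0.69) and for Elp5, Ctdnep1 and Gabarap (15.0 and 9.87, -0.56). Txnip had 7 others within 100 kb, with a median of -0.54 and a range from -0.92 to 0.12. On 1 side lay Hfe2, the hemojuvelin gene (12.5 and 6.13, -0.92), and on the other a region over the start of Polr3gl (13.4 and 10.3, -0.35). This last region, also listed for Ankrd34a and Lix1l, had a higher ratio than the domain over the end of Polr3gl.

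The regions most like each member were sought among 12182 regions listed for 1 gene, by the Euclidean distance over the average and the maximum in both libraries on the log2 scale, which are 4 values from 2 libraries. For the Slc2a4 start region they were Kcnh2, a cardiac potassium channel gene (18.0 in sham and 9.30 in TAC, distance 0.071), Rreb1 (0.088) and Srek1 (0.10). Txnip was nearest to Rwdd1 (23.4 and 13.4, distance 0.13), Klhl9 (0.17) and H6pd (0.22), at larger distances than for the other members. The Slc2a1 start region was nearest to Cmss1 (10.9 and 8.80, distance 0.057), D830036C21Rik and LOC101055835, and the inner region to Tmem241, Tmem38b and Med13l. For the Ybx2 start region they were Tango6, Pde7a and Acta2, and for the Ybx2 body region Gjc1, 2310007L24Rik and Jarid2.

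Of the 21900 protein-coding genes of RefSeq, 53.3% had a region in the table, matched by symbol or synonym, which is the background for the counts of genes with a region below. Of the 10 other members of the facilitative family, 4 had one, and Slc2a2, Slc2a3, Slc2a5, Slc2a6, Slc2a7 and Slc2a13 had none. Slc2a12, the gene of the muscle and fat transporter Glut12, had a region at its start whose average was 9.34 in sham against 7.53 in TAC (-0.28), a pattern of level and ratio close to that of Slc2a1. Slc2a8, which encodes the intracellular transporter Glut8, had 2 regions. Its stronger one was listed downstream and for 4 genes (13.7 and 11.4, -0.24), and the one at its start had 13.3 and 9.75 (-0.41). Slc2a10 (9.57 and 6.15, -0.57) and the urate transporter gene Slc2a9 (9.52 and 4.89, -0.84) had regions away from their starts. Slc5a1, the sodium-linked transporter gene, had 10.2 and 5.23 (-0.85) deep inside the gene, and Slc5a2 none. Of these 5 genes with a region only Slc2a8 was called in TAC, and none was as strong as Slc2a4 in sham.

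In the alpha-arrestin family and among the partners of Txnip every gene searched had a region, 11 of 11, with a median log2 ratio of -0.46. Arrdc4, the arrestin gene most closely related to Txnip and likewise induced by glucose, had 16.4 in sham and 8.16 in TAC (-0.93) at its start, the lowest ratio of the list, with a call in sham alone. Arrdc3 lay at the other end of the arrestins, with 15.0 and 12.9 (-0.19), and by its maximum was higher in TAC, at 42 against 33 in sham. Ddit4, the gene of a stress-induced inhibitor of mTORC1, had 10.8 and 10.9 (0.01) downstream of the gene, called in TAC alone. Its other region, upstream, had 8.56 and 6.0 (-0.45) and was called in sham alone. The strongest was Txnrd1, the gene of cytosolic thioredoxin reductase, with 20.9 and 12.1 (-0.74). Thioredoxin itself, Txn1, had 16.7 and 12.2 (-0.42). At least 1.5-fold lower in TAC were 4 of the 11 (36.4%), beside 36.3% of all genes with a region, and none was as much higher (0.208% of all genes).

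Genes of the factors that read glucose or drive the transporter genes all had a region as well, 14 of 14, with a median of -0.55. Mlxipl had 15.0 in sham and 8.53 in TAC (-0.74), with a call in sham alone, and Mlxip 13.4 and 9.67 (-0.44). Mef2a, which encodes a muscle factor that binds the Slc2a4 promoter, was the strongest (25.0 and 14.9, -0.71). Klf15, whose product activates Slc2a4, had 18.5 and 11.2 (-0.67). Hif1a, the hypoxia factor gene whose product induces Slc2a1, had the lowest ratio at the strongest region (14.9 and 8.41, -0.75). This did not hold by the mean over its 4 regions (-0.62, where Mlxipl had -0.74). Myc had the highest ratio (11.6 and 10.3, -0.15), and by its maximum was higher in TAC, at 27 against 22 in sham. In this list 6 of 14 (42.9%) were at least 1.5-fold lower, beside 36.3% of all genes with a region.

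The Glut4 vesicle list had regions at 17 of 18 genes, with a median of -0.56. At least 1.5-fold lower were 6 of the 17 (35.3%), beside 36.3% of all genes with a region. Lnpep, the gene of an aminopeptidase that travels in the Glut4 vesicles, had the lowest ratio at the strongest region (22.1 in sham and 12.9 in TAC, -0.73), and its 6 regions had a mean of -0.70. Vamp2, the vesicle SNARE gene, was the strongest (24.7 and 15.3, -0.65), in a region shared with the clock gene Per1. Sort1, the sortilin gene, was highest in ratio at that region (8.10 and 7.74, -0.06), but its second region, with a call in sham alone, had 10.2 and 5.3 (-0.83). Tbc1d4, which encodes the Akt substrate that holds back Glut4 vesicles, had 9 regions, the strongest with 17.2 and 10.3 (-0.68) and a call in sham alone. Their ratios ran from -1.27 to -0.42 with a mean of -0.77, the lowest mean of this list. Hexokinases, which trap glucose after its entry, had a region in 2 of 4 cases, Hk2 with 14.4 and 8.09 (-0.76) and Hk1 with 18.7 and 13.5 (-0.44). Another of the 4 Hk2 regions, 21363 bp long, was about as strong, with 14.6 and 7.91 (-0.81).

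Over all 59 other genes of these lists, 49 had a region (83.1%, beside 53.3% of protein-coding genes), and 48 of these had a ratio below 0. Of the 49, 19 (38.8%) were at least 1.5-fold lower in TAC and none as much higher, beside 36.3% and 0.208% of all 13464 genes with a region. Their median log2 ratio was -0.54, where that of all genes was -0.50, and 28 lay below and 21 above it. The counts of pathway genes past 1.5-fold were thus close to the background, while the share with a region was above it. Within their range Slc2a1 stood high and Slc2a4 low, with 5 of the 49 genes above Slc2a1, 3 below Slc2a4 and 7 below Txnip.

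**Figure D5:**
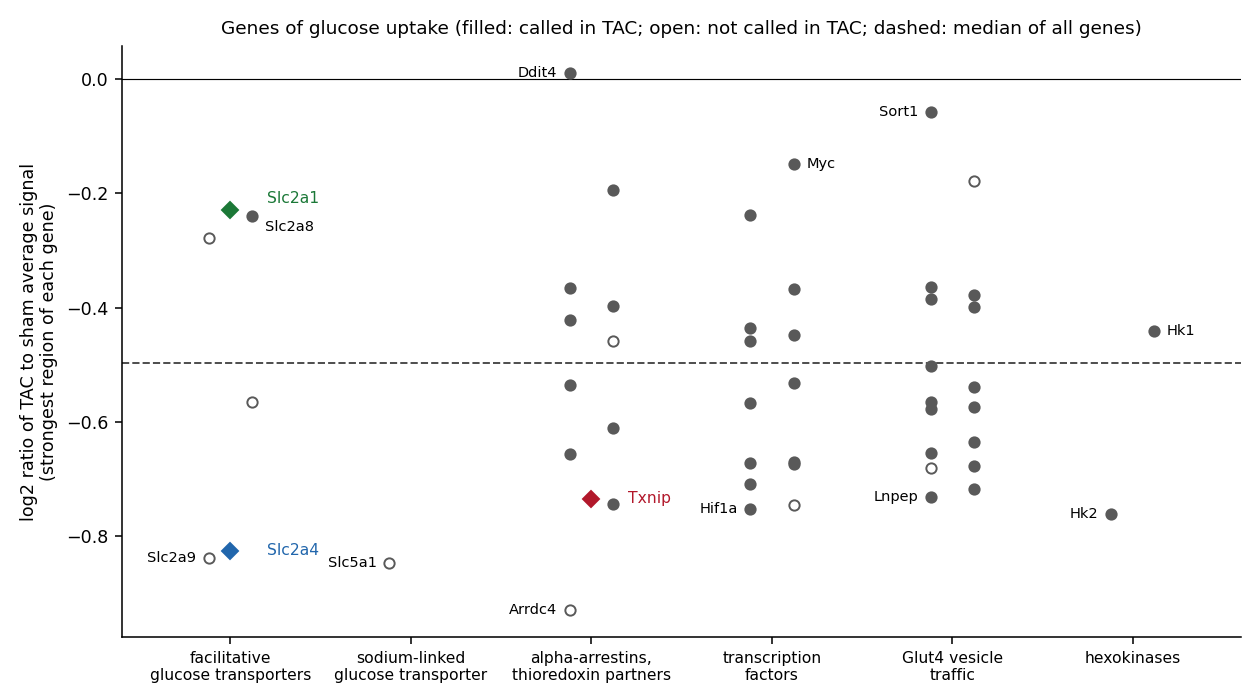
Log2 ratio of TAC to sham average signal at the strongest region of each other glucose uptake gene, by list, with filled circles for regions called in TAC, open circles for regions not called there, and coloured diamonds for Slc2a1, Slc2a4 and Txnip. The dashed line is the median of all genes (-0.50), and each list with more than 1 gene plotted has members on both sides of it.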

How the data were processed

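Yap1 ChIP-seq libraries of sham and TAC hearts were compared. BWA, MACS 1.4.2 and the mm10 build are named in the submitters' processing notes. Each row of the deposited table is a region merged over both libraries. Per the file headers, its columns hold the mean and the highest signal and a call mark for each library, with listed genes, distance to the start, and counts of intervals, promoters and CpG islands. The sources used here state no signal scaling, peak threshold or depth, so no interval could be attached. Column names carrying the operation matched each library. The input library was not analysed here.

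Computed here, in Python 3.11.15 with pandas 2.3.3, numpy 2.4.6 and scipy 1.17.1, were log2((TAC + 1)/(sham + 1)), counts past 1.5-fold, and percentiles among regions. The counts past 1.5-fold, the choice of the members' strongest regions and the quantile normalization were checked on simulated data. The percentiles were not. A gene took its region with the highest mean signal. RefSeq starts (GRCm38.p6) were 0, 26 and 0 bp from those implied by the table for Slc2a1, Slc2a4 and Txnip. Exon structure was not used. Some genes of the lists are not reported here and were left out of the list counts. Sequences were matched by symbol for 2 of 3 members. Of each list the text names the strongest gene and those with the highest and lowest ratio, every transporter, the 3 most similar regions and the neighbours of each member. Arrdc3, Txn1, Mlxip, Mlxipl, Klf15, Tbc1d4 and the comparison with broad regions were chosen after their values were seen. Members and lists were chosen with earlier results of these data known.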

Additional observations from a re-analysis of the deposited data

How the results depend on the processing

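With 1 library per operation no replicate could be left out. No paired analysis was possible because each operation has 1 library and no result comes from a test. The scaling of the libraries decided the direction at Slc2a1. With the median of all regions subtracted the log2 ratios of its start and inner regions were 0.31 and 0.22, with the median of regions called in both libraries subtracted 0.23 and 0.15, and under quantile normalization 0.23 and 0.23. The same 3 scalings left the other regions below 0 but short of 1.5-fold, in that order at -0.29, -0.36 and -0.33 for the Slc2a4 start region, -0.10, -0.18 and -0.13 for the Ybx2 body region, -0.27, -0.34 and -0.30 for the Ybx2 start region, and -0.20, -0.27 and -0.19 for Txnip. Under each of the 3, and with a 2-fold size, 0 of the 6 regions and 0 of the other pathway genes were past the size in the lower direction. Over all regions the 3 scalings gave 508, 824 and 307 lower and 974, 721 and 901 higher, and the 2-fold size 1127 and 13. A pseudocount of 5 took the Ybx2 start region (-0.56) and the Ybx2 body region (-0.44) inside 1.5-fold, leaving 2 of the 6 regions, 4 pathway genes and 3105 of all regions lower and 20 higher. By the maximum signal the Slc2a1 inner region was past 1.5-fold (-0.69), the Ybx2 body region was not (-0.23), and 212 of all regions were higher. The median of the other pathway genes was -0.54 as reported and barely past 1.5-fold with no pseudocount (-0.585), where the median of all regions also passed it (-0.594). Of the 9969 regions called in both libraries 3194 were lower and 0 higher, beside 9468 and 107 of all 22020. Of regions at or above the median signal 4212 were lower and 3 higher. The difference between the Slc2a1 and Slc2a4 start regions, examined after seeing the data, was 0.48 with a pseudocount of 5, 0.56 by the maximum and 0.56 under quantile normalization, all short of 1.5-fold, and 0.64 with none. Slc2a4 and Txnip have no region listed for them alone, so that alternative gave no value for them. The cause of these shifts was not tested. Depth is unknown, so how far low maxima could differ by counting alone cannot be stated.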
